A study of Mus musculus with 75 samples.

Results

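The genes described here are 10 members of 1 calcium signalling branch: Camk2a, Camk2b, Camk2d and Camk2g, Camk4, Camkk1 and Camkk2, and Ppp3ca, Ppp3cb and Ppp3r1. They were taken by gene symbol, with Ensembl identifiers matched without their version suffix, and all 10 were found among the 55401 identifiers of the deposited count table. All 10 passed the filter on low counts in every comparison. The rule uses no measured value, but the genes were proposed with earlier results of these data known.

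Nuclear RNA was sequenced from green fluorescent nuclei sorted from dissected nucleus accumbens of male mice, in 75 libraries. The mice carried the LSL-eGFP::L10a allele, which is switched on by Cre, together with D1-Cre or D2-Cre, so a nucleus was sorted because its cell had at some time expressed Cre under the D1 or the D2 receptor gene; age was not given. Every mouse had daily intraperitoneal injections for 10 days, 30 days of withdrawal in the home cage and a challenge injection 1 h before death, with cocaine at 20 mg/kg wherever it was given. Groups are named by the repeated injections and then the challenge: saline then saline (SS), saline then cocaine (SC), cocaine then saline (CS) and cocaine then cocaine (CC). From D1-Cre mice there were 10 libraries of SS, 9 of SC, 8 of CS and 10 of CC, and from D2-Cre mice 9 of SS, 9 of SC, 10 of CS and 10 of CC. The labels number the libraries but do not say whether each came from its own animal, so p-values measure the spread between libraries, part of which may be technical.

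As background, calcium that enters a neuron binds calmodulin, and calcium-loaded calmodulin switches on opposing enzymes. The CaM kinases add phosphate: CaMKII, a ring built from the products of Camk2a, Camk2b, Camk2d and Camk2g, acts at synapses, while CaMKIV (Camk4) acts largely in the nucleus, where it phosphorylates CREB, and is itself switched on by the CaM kinase kinases (Camkk1, Camkk2). Calcineurin removes phosphate: it is made of a catalytic subunit (Ppp3ca or Ppp3cb) and a regulatory subunit (Ppp3r1), and in medium spiny neurons, the principal neurons of the nucleus accumbens, its substrates include the phosphatase inhibitor encoded by Ppp1r1b. Both arms have long been studied in the plasticity that follows cocaine.

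Total counts ranged from 19825 to 34870414 with a median of 14893119; levels below are from the 71 libraries with at least 1000000 counts, while the tests used all 75. Libraries differed strongly in background. Counts per base of 1738 olfactory and vomeronasal receptor genes, which are silent in brain, were extended over all gene spans, and by this measure 4.03% to 71.5% of a library's counts were background. The mean background share in the D1 line was 46.2% in SS, 23.4% in SC, 57.1% in CS and 46.0% in CC, and in the D2 line 44.2%, 34.5%, 35.02% and 41.0%. By rules on depth, genes detected, receptor ratio and correlation, 17 libraries failed (8 D1, 9 D2). Of the 36 D1 libraries with enough counts, 15 held more Drd2 than Drd1, against the label, while 0 of the 35 D2 libraries did the reverse. In sorted bulk nuclei, fewer nuclei of a type and less RNA per nucleus cannot be told apart.

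The genes Camk2b, Camkk1, Ppp3cb and Ppp3r1 passed together in 1 comparison described below, and their promoters are shown for that reason. RefSeq (GRCm38.p6) held the 250 bases before the transcription start for 6 of the 10 members, these 4 with Camk2d and Camkk2; Camk2a, Camk2g, Camk4 and Ppp3ca were not matched. Capitals mark, on either strand, GGGCGG (the GC box bound by Sp1) and TGACG (the short form of the cAMP response element bound by CREB). The window of Camk2b is chr11:6065749-6065998, minus strand, within an intron of a longer GENCODE transcript; that of Camkk1 is chr11:73018738-73018987, plus strand, partly over an exon of the noncoding 4732414G09Rik on the opposite strand; that of Ppp3cb is chr14:20546574-20546823, minus strand, in an intron of 1810062O18Rik on the opposite strand. The window of Ppp3r1, chr11:17159048-17159297, runs into the first annotated exon and is not printed.
Camk2b: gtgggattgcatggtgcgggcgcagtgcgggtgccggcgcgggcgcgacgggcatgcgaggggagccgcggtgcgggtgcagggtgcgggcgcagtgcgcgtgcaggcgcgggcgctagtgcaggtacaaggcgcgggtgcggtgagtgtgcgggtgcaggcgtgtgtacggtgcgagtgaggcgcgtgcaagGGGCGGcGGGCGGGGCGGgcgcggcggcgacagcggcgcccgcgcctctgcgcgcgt
Camkk1: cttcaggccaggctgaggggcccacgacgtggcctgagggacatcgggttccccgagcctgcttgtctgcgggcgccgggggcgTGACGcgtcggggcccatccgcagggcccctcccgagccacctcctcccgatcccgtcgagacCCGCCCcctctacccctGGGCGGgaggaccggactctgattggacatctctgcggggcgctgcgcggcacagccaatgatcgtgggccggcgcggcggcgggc
Ppp3cb: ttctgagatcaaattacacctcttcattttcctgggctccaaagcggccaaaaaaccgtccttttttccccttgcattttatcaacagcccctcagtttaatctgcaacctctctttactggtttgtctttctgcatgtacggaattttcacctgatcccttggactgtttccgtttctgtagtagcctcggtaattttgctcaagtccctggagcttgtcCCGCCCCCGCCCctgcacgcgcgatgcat
GGGCGG was present in 6 of the 6 windows, with 4 matches in Ppp3r1, 3 in Camk2b and in Camk2d, 2 in Camkk1 and in Ppp3cb and 1 in Camkk2; it was present in 32.7% of all 32851 promoter windows of that length. TGACG was present in Ppp3r1 and Camkk1, with 1 match each, against 17.8% of all windows. The full element TGACGTCA, which contains TGACG, was in 0 of the 6 and in 1.55% of all windows. The windows of Camk2b, Camkk1 and Ppp3r1 had a GC content of 78.4%, 74.4% and 70.8%, and that of Ppp3cb 48.4%. These are matches of letters, described without a test.

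In mm10 coordinates, as GENCODE M21 annotates them, the genes differ widely in length, which matters here because the length behind the deposited FPKM is the whole gene span, introns included. Ppp3ca (chromosome 3, 136670124 to 136937727, plus strand) spans 267.6 kb, Camk4 (chromosome 18, 32934931 to 33191228, plus) 256.3 kb and Camk2d (chromosome 3, 126596302 to 126846326, plus) 250.025 kb. The middle group is Camk2b (chromosome 11, 5969644 to 6066362, minus) with 96.7 kb, Camk2a (chromosome 18, 60925618 to 60988152, plus) with 62.5 kb and Camk2g (chromosome 14, 20734875 to 20794088, minus) with 59.2 kb. Camkk2 (chromosome 5, 122731170 to 122779409, minus) spans 48.2 kb, Ppp3cb (chromosome 14, 20499364 to 20546573, minus) 47.2 kb, Ppp3r1 (chromosome 11, 17159263 to 17200375, plus) 41.1 kb and Camkk1 (chromosome 11, 73019008 to 73042073, plus) 23.1 kb. Ppp3r1 overlaps Wdr92 on its own strand. On the opposite strand, Ppp3cb overlaps 1810062O18Rik, and Camk4 overlaps 2310026I22Rik and Gm22814. Camk2d overlaps 8 short annotations, Ppp3ca 3 genes (Gm42822, 4930599N24Rik and Gm44327) and Camk2a 2 microRNA genes on its own strand. Reads in all these overlaps could have been assigned to either gene, and whether the counting used strand is not given in the sources used here.

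Per length, Camk2a and Ppp3ca, catalytic genes of the opposing arms, had the highest median levels. On the FPKM scale, here the counts per kilobase of gene span divided by the library's total and scaled to 1000000, Camk2a had a median over the 71 libraries of 3.72, Ppp3ca 3.45, Camk2b 2.96 and Ppp3r1 2.60. Ppp3cb followed at 1.71, Camk4 at 1.46, Camkk1 at 1.37, Camkk2 at 1.35, Camk2g at 0.858 and Camk2d at 0.630. Neighbours in that order often traded places within a library: Camk2a was above Ppp3ca in 37 of 71, Ppp3cb above Camk4 in 42, Camk4 above Camkk1 in 45 and Camkk1 above Camkk2 in 32. Other steps were steadier, with Ppp3r1 above Ppp3cb in 69 of 71, Camkk2 above Camk2g in 67 and Camk2g above Camk2d in 64. Against the background per length in the same library, the median level was 10.0 times for Camk2a and 9.74 times for Ppp3ca, but only 2.50 times for Camk2g and 1.77 times for Camk2d. In the library where it was nearest the background, Camk2d lay at 1.26 times, so its level was close to that of silent genes.

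**Figure D1:**
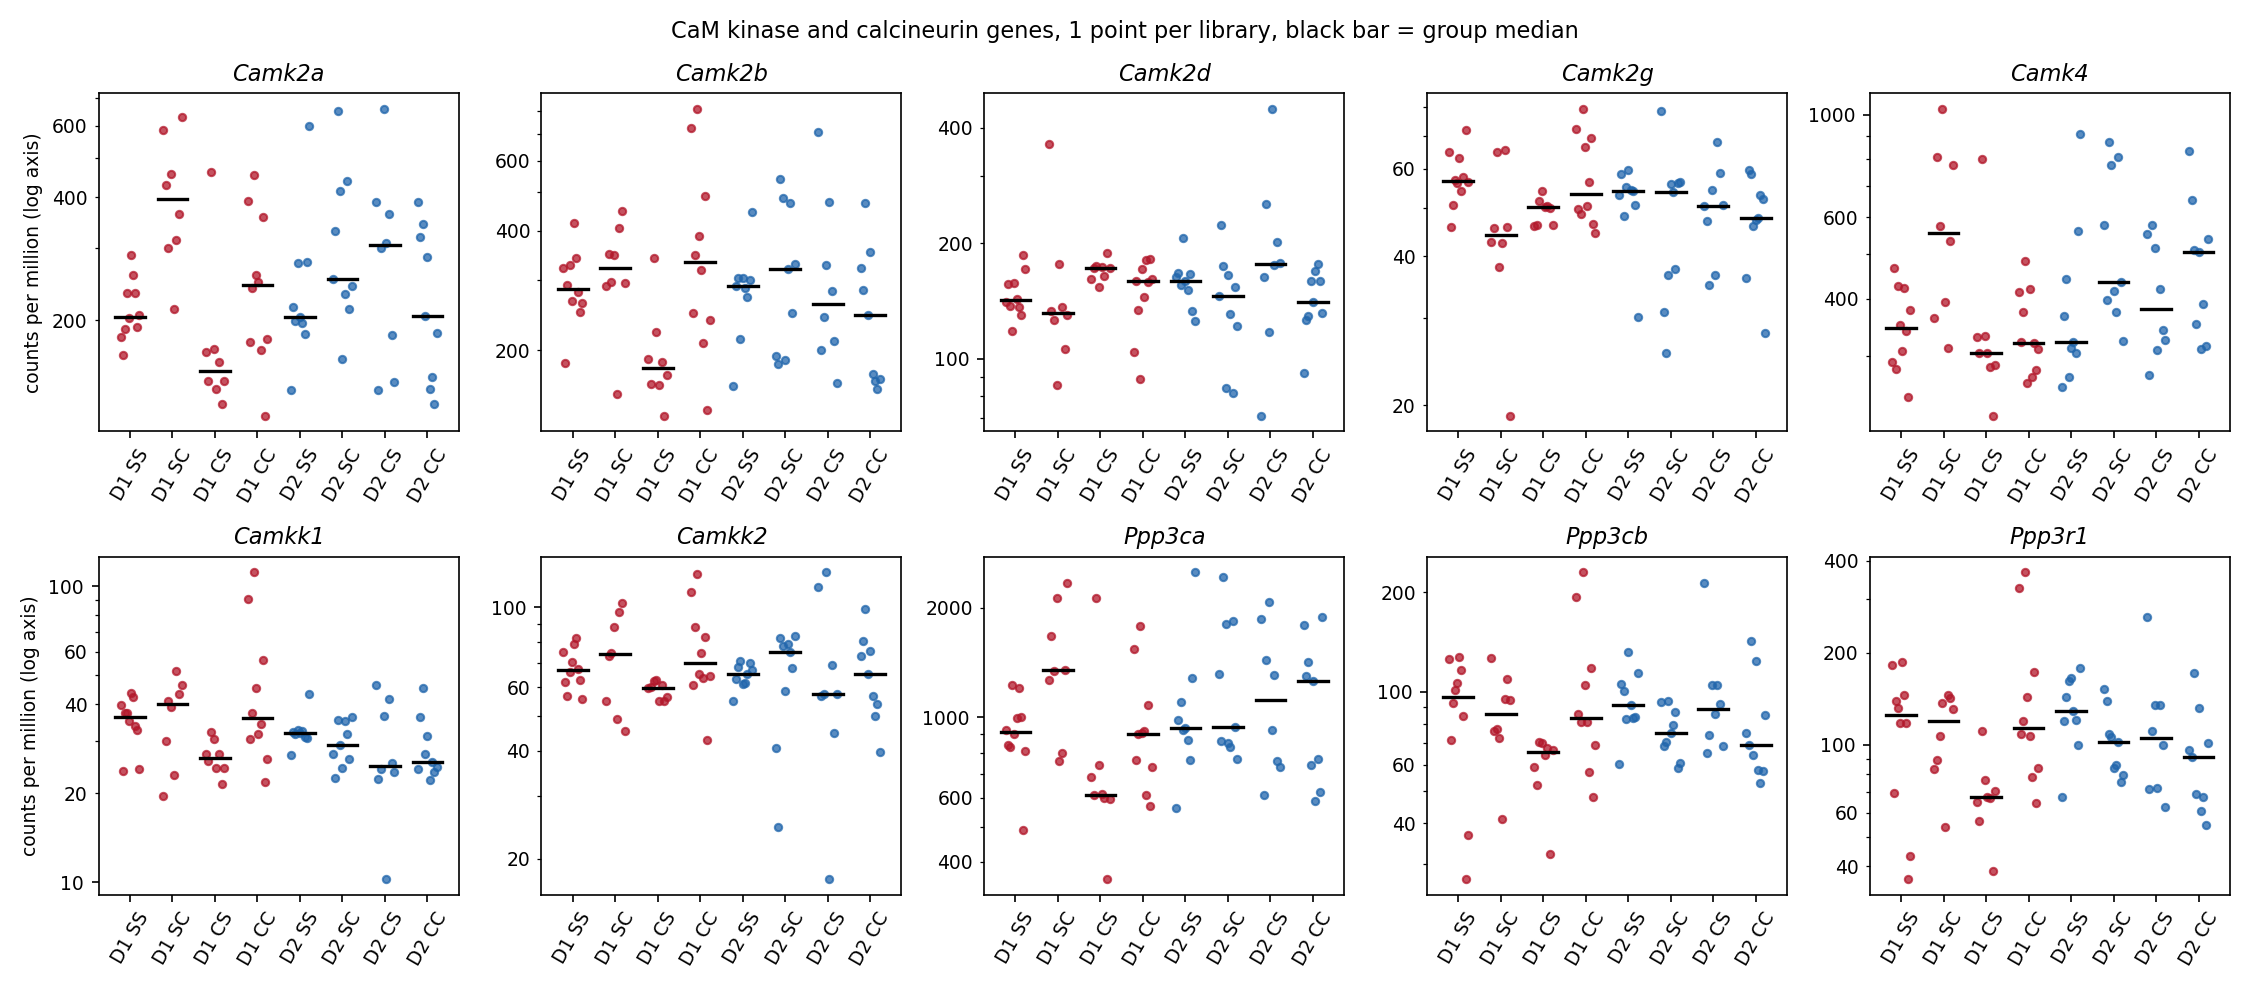
CPM (log axis) of the 10 genes in the 71 libraries with at least 1000000 counts, 1 point per library, by line and treatment (D1 red, D2 blue), with a black bar at the group median. In D1 SC the Camk2a points lie between 213 and 629 and those of D1 SS between 164 and 289; most other groups overlap widely.

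Of the summed per-length level of the 4 Camk2 genes, Camk2a, the alpha subunit that dominates forebrain neurons, had a median share of 43.6% over the 71 libraries, Camk2b 34.2%, Camk2g 11.1% and Camk2d 7.94%. The median Camk2a share was 43.3% in the 36 D1 and 45.1% in the 35 D2 libraries. Within the D1 line, the Camk2a share in SS had a lowest value of 36.8%, a median of 43.3% and a highest value of 45.9%, and in SC 46.2%, 55.6% and 72.1%. The SC libraries thus all lay above the SS libraries, without overlap, on a quantity that does not depend on how libraries are scaled to each other. After the background per length was subtracted from each gene, the ranges overlapped, from 39.1% to 52.4% with a median of 46.6% in SS and from 48.9% to 72.7% with a median of 60.5% in SC. The share was picked out after its values were seen and was not tested. In the D2 line the Camk2a share ran from 39.98% to 63.0% in SS and from 41.9% to 61.4% in SC, which overlap almost fully.

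**Figure D2:**
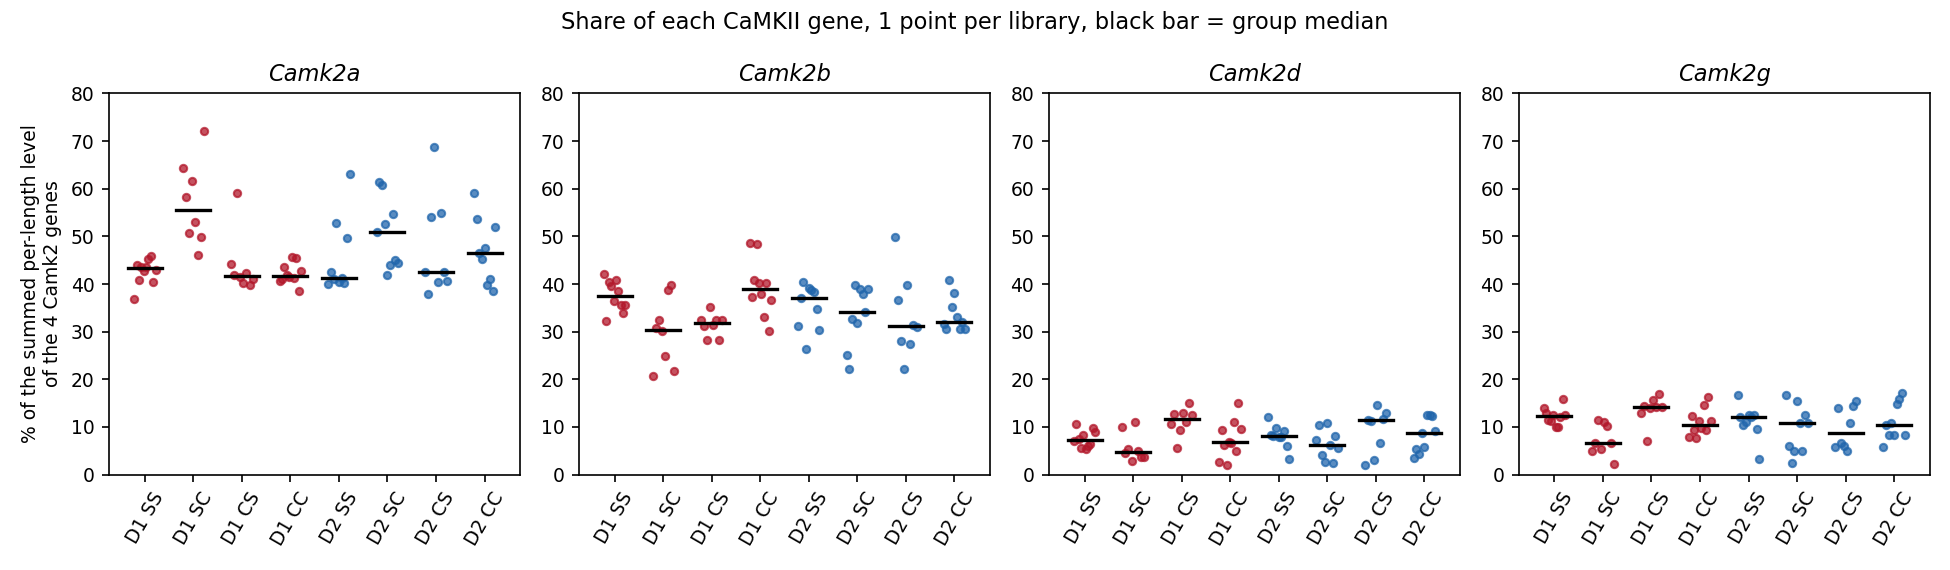
Share of each CaMKII gene in the summed per-length level of the 4 Camk2 genes (percent, 1 point per library, black bar at the group median, D1 red, D2 blue). The Camk2a share of D1 SC lies from 46.2% to 72.1%, above the 36.8% to 45.9% of D1 SS.

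The calcineurin genes divided as Ppp3ca 45.2%, Ppp3r1 31.6% and Ppp3cb 23.2% by median share of their summed per-length level. The balance of the arms was taken as the log2 ratio of the summed CaMKII genes to the summed calcineurin genes, per length. It had a median of 0.04 over the 71 libraries, so the sums were close to equal, and ran from -0.98 to 1.21. In D1 it was 0.05 ± 0.50 (SD, n = 10) in SS and 0.20 ± 0.24 (n = 8) in SC, and in D2 -0.12 ± 0.14 (n = 9) in SS and 0.14 ± 0.28 (n = 9) in SC. The D1 SS libraries spread widely, from -0.42 through a median of -0.13 to 1.21. The median was 0.17 in D1 SC, -0.12 in D2 SS and 0.19 in D2 SC. Of 5 comparisons of this ratio, none passed after adjustment. The D2 SC minus SS difference of 0.26 came closest, with p = 0.0251 by a two-sided exact permutation test and 0.125 after Benjamini-Hochberg adjustment over the 5, and the other 4 had adjusted p of 0.276 or more. Without the failing libraries (7 SC against 9 SS) that difference was 0.35 with an adjusted p of 0.0131 by the same exact permutation test.

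A cocaine challenge after repeated saline, the response to a first exposure, gave the clearest differences in the D1 line: Camk2a, Camk4, Ppp3ca and Camk2d were higher in D1 SC than in D1 SS. These are 4 of the 10 genes called higher and 0 lower, where 9.7% of all 37721 genes tested were called higher and 1.64% lower. Camk2a ran from 164 CPM (counts scaled to a library total of 1000000) through a median of 204 to 289 in SS, and from 213 through 396 to 629 in SC. Of the 8 SC libraries, 7 lay above every SS library. The fitted log2 change was 1.67 ± 0.38 (SE), with an adjusted p of 0.00532 by edgeR's quasi-likelihood test, and 8 of the 9 tested SC libraries lay above the SS mean.

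Camk4, the nuclear kinase upstream of CREB, had a lowest, median and highest value of 245.7, 346 and 466.3 CPM in SS and 313, 553 and 1029 CPM in SC. The groups overlapped, with 5 of 8 SC libraries above the highest SS library. Its log2 change was 1.55 ± 0.35 (edgeR adjusted p = 0.00495; 8 of 9 above the SS mean). Ppp3ca, the catalytic alpha subunit of calcineurin, had 489, 913 and 1226 CPM in SS and 760, 1346 and 2337 CPM in SC, and 6 of 8 SC libraries lay above the SS range. Its log2 change was 1.38 ± 0.40 (edgeR adjusted p = 0.0214; 7 of 9 above). The kinase genes and the phosphatase gene moved in the same direction, and the ratio of the arms given above did not pass in D1.

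Camk2d, the delta subunit of CaMKII, was called although its median CPM was not higher. Its SS libraries ran from 118 through 142 to 186 CPM and its SC libraries from 85.6 through 132 to 363 CPM. The SC median was thus below the SS median, 2 of 9 SC libraries lay above the SS mean, and 1 library, D1 SC 1, stood far above the rest at 363 CPM. The fitted log2 change was 0.60 ± 0.19 (edgeR adjusted p = 0.0350), with TMM scaling factors whose median was 0.792 in SC and 1.14 in SS. Scaled by total counts alone the change was 0.03 (edgeR adjusted p = 0.908), and without D1 SC 1 it was 0.35 (edgeR adjusted p = 0.133). The call was kept in 8 of the 19 fits that left out 1 library and in only 1 of the 10 other settings.

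The 6 other genes did not pass in D1 SC minus SS. Camkk2 came closest at 0.75 ± 0.27 (edgeR adjusted p = 0.0605), followed by Camkk1 at 0.74 ± 0.35 (edgeR adjusted p = 0.139). Camk2b stood at 0.65, Ppp3r1 at 0.62, Ppp3cb at 0.46 and Camk2g at 0.21 on the log2 scale, all with overlapping ranges of CPM. The Ppp3r1 median was 125 CPM in SS and 119 CPM in SC, and that of Ppp3cb 96.6 and 85.6 CPM. Camk2g, the gamma subunit of CaMKII, ran from 45.8 through 56.7 to 71.8 CPM in SS and from 19.1 through 44.1 to 65.6 CPM in SC, with 6 of 8 SC libraries below every SS library. For these 3 genes the plain medians and the fitted changes pointed in opposite directions.

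The D1 SC group also had the lowest mean background share of the 8 groups. With the background share as a covariate, 0 of the 10 genes passed (smallest edgeR adjusted p 0.135; 4 at an unadjusted p under 0.05) and 2 genes of the whole table did; Camk2a then stood at 0.57 and Ppp3ca at 0.16. Scaling by total counts alone, chosen after seeing the data, kept Camk2a (0.98, edgeR adjusted p = 0.0393) and Camk4 (0.82, edgeR adjusted p = 0.0443), lost Ppp3ca (0.67, edgeR adjusted p = 0.0769), moved the median of all genes from -0.07 to -0.53, and changed the share of higher genes among those called from 85.6% to 70.0%. Leaving out the failing libraries kept Camk2a and Camk4 as the only called members, and leaving out D1 SC 2 or D1 SC 4 left 0 called, D1 SC 9 left 1, and D1 SC 5 or D1 SS 3 left 2.

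**Figure D3:**
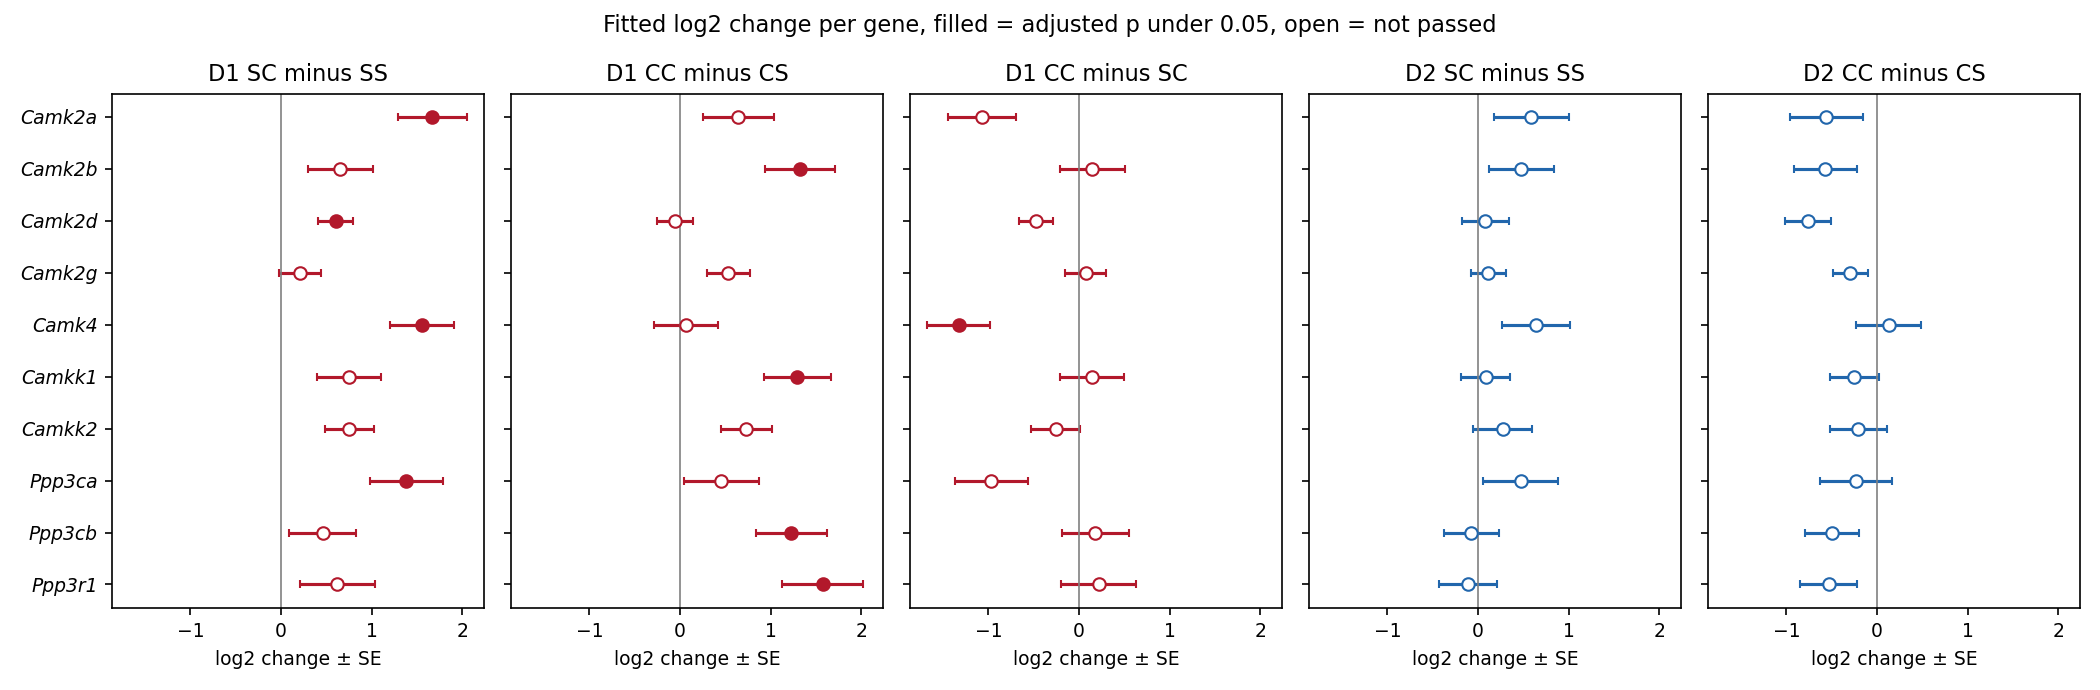
Fitted log2 change with its standard error (horizontal bars) for the 10 genes in 3 D1 and 2 D2 comparisons; filled points passed an edgeR adjusted p of 0.05 and open points did not. Camk2a, Camk2d, Camk4 and Ppp3ca are filled in D1 SC minus SS, Camk2b, Camkk1, Ppp3cb and Ppp3r1 in D1 CC minus CS, Camk4 in D1 CC minus SC, and no gene in the D2 panels.

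A cocaine challenge after repeated cocaine, compared with a saline challenge after the same history, showed Camk2b, Camkk1, Ppp3cb and Ppp3r1 higher in D1 CC than in D1 CS. Again 4 of 10 were called higher and 0 lower, where 8.28% of all genes tested were called higher and 0.0292% lower (8.31% in either direction). Ppp3r1, the regulatory subunit that calcineurin needs for activity, had a lowest, median and highest value of 38.6, 67.4 and 111 CPM in CS and 64.5, 114 and 367 CPM in CC. The groups overlapped, with 5 of 10 CC libraries above the CS range, and D1 CC 3 and D1 CC 1 were the highest. The log2 change was 1.57 ± 0.45 (edgeR adjusted p = 0.0237; 9 of 10 above the CS mean).

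Camk2b, the beta subunit that ties CaMKII to actin, had 137, 180 and 342 CPM in CS and 141, 333 and 811 CPM in CC. Here too 5 of 10 CC libraries lay above the CS range, and the log2 change was 1.32 ± 0.39 (edgeR adjusted p = 0.0271; 9 of 10 above). Camkk1, which activates CaMKIV, had 21.5, 26.4 and 32.2 CPM in CS and 21.7, 35.8 and 111 CPM in CC, with 6 of 10 above the CS range and a log2 change of 1.30 ± 0.37 (edgeR adjusted p = 0.0254). Ppp3cb, the catalytic beta subunit, had 32.3, 65.5 and 70.4 CPM in CS and 47.9, 83.2 and 230 CPM in CC, with 7 of 10 above the CS range and 1.23 ± 0.39 (edgeR adjusted p = 0.0420). The lowest CS library for these 4 genes was D1 CS 7, the library with the highest background share of all, and the highest CC library was D1 CC 3, which had the lowest.

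Among the members not called in D1 CC minus CS, Camkk2 stood at 0.73, Camk2a at 0.64, Camk2g at 0.53, Ppp3ca at 0.46, Camk4 at 0.07 and Camk2d at -0.05 on the log2 scale. A difference of this response from that in D1 SC minus SS was not called with edgeR. In the interaction of challenge with history, the CC to CS change less the SC to SS change, 0 of 10 members passed with edgeR (2 at an unadjusted p under 0.05, 0 genes of the whole table called). Camk4 came closest at -1.49 ± 0.49 with an edgeR adjusted p of 0.0861. In that interaction DESeq2 called 1 member lower, where it called 1527 of all 37721 genes lower and 1325 higher, and limma called 0 members. The 4 genes called in CC minus CS span 23.1 to 96.7 kb, whereas 3 of the 4 called in SC minus SS span at least 250.025 kb.

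None of the 4 genes called in D1 CC minus CS was called with RLE scaling (Camk2b 1.01, edgeR adjusted p = 0.0513), with total count scaling (0.99, edgeR adjusted p = 0.0656), with the background share as a covariate (0.64, edgeR adjusted p = 0.451), after background subtraction, or without the failing libraries. Of the 10 other settings, Camk2b, Camkk1 and Ppp3r1 each kept their call in 5 and Ppp3cb in only 1. Of the 18 fits that left out 1 library, Ppp3cb kept its call in 9. Leaving out 1 library gave 0 called members without D1 CC 1, D1 CC 3, D1 CS 1, D1 CS 2 or D1 CS 7, 1 without D1 CS 8, 2 without D1 CS 6 and 8 without D1 CS 3.

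Cocaine history before the cocaine challenge was compared in D1 CC minus SC, which shares its SC libraries with D1 SC minus SS and its CC libraries with CC minus CS. Camk4 was lower in CC, the 1 member called lower, with 0 called higher, where 7.86% of all genes were called lower and 2.62% higher. Its CC libraries ran from 263 through 321 to 482 CPM against 313, 553 and 1029 CPM in SC. Of the 10 CC libraries, 4 lay below the lowest SC library and 0 lay above the SC mean. The log2 change was -1.33 ± 0.35 (edgeR adjusted p = 0.0124).

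Camk2a stood at -1.07 ± 0.38 (edgeR adjusted p = 0.0577), Ppp3ca at -0.97 ± 0.40 (edgeR adjusted p = 0.0964) and Camk2d at -0.47 ± 0.19 (edgeR adjusted p = 0.0896) in that comparison, and the 6 other genes lay between -0.26 and 0.22. With the background share as a covariate Camk4 was no longer called (-0.45, edgeR adjusted p = 0.130), and 5 other members were then called higher in CC, as were 4684 of all 37721 genes. Total count scaling kept Camk4 (-0.84, edgeR adjusted p = 0.0162), added Camk2a, moved the median of all genes from 0.19 to 0.52, and changed the share of higher genes among those called from 25.03% to 69.8%; with RLE it was 35.7%. Leaving out D1 SC 2, 4, 5 or 9, or the 5 D1 libraries with over 300 CPM of Drd2, left 0 called members; leaving out D1 CC 1 gave 2, and D1 CC 3 or D1 SC 6, 7 or 8 gave 3.

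Cocaine history alone gave no call in the D1 line. In D1 CS minus SS, 0 of 10 members passed with edgeR (0 at an unadjusted p under 0.05, and 0% of all genes called). The CS medians were still lower for most members, for Camk2a 150 CPM against 204, for Camk2b 180 against 285, for Ppp3ca 613 against 913 and for Ppp3r1 67.4 against 125. The fitted log2 changes were -0.04 ± 0.39 for Camk2a, -0.52 ± 0.38 for Camk2b, -0.04 ± 0.41 for Ppp3ca and -0.73 ± 0.43 for Ppp3r1. Camk4 at 0.16 and Camk2d at 0.18 lay above 0. The mean background share was 57.1% in CS and 46.2% in SS, and its part in these medians was not tested. Limma with library weights called 9 members lower in this comparison, where it called 16547 of all 37721 genes, 9243 of them lower, and DESeq2 called 0 of either. In D1 CC minus SS, 0 members passed with edgeR, DESeq2 or limma (3 at an unadjusted edgeR p under 0.05; 0% of all genes called), and the direction depended on the tool: with edgeR all 10 fitted changes lay above 0 with a median of 0.55, while with limma 1 lay above 0 and 9 below, with a median of -0.17. With background subtracted 8 lay above 0 and 2 below.

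The D2 line gave no called member in any of 6 comparisons by edgeR. In D2 SC minus SS (0% of all genes called, 0 members at an unadjusted p under 0.05), Camk4 had the largest change at 0.64 ± 0.37 (edgeR adjusted p = 0.973). It ran from 258 through 322 to 909 CPM in SS and from 325 through 434 to 874 CPM in SC, ranges that overlap almost fully, as the highest library was an SS library. Camk2a stood at 0.59 ± 0.41, from 135 through 203 to 598 CPM in SS and from 161 through 253 to 652 CPM in SC. In D2 CC minus CS, where 0.252% of all genes were called, Camk2d came closest at -0.76 ± 0.25 (edgeR adjusted p = 0.220), the 1 member at an unadjusted p under 0.05. In D2 CS minus SS, where 0.0859% of all genes were called, all higher, the smallest edgeR adjusted p among the members was 0.819. DESeq2 called 0 members in any D2 comparison, while limma with library weights called 2 lower in SC minus SS, 3 in CS minus SS and 4 in CC minus SS. Of all 36090 genes limma called 3063, 3333 and 5122 lower in these comparisons.

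The lines themselves were not told apart by these genes. In SS, 0 of 10 members differed between D1 and D2 (edgeR; 0.0255% of all genes called, 0.0127% higher and 0.0127% lower; 0 members at an unadjusted p under 0.05), and Camk2a had medians of 204 and 203 CPM, Ppp3ca 913 and 934, and Camk2b 285 and 290. Over the mean of the 4 treatments 0 of 10 differed with edgeR or DESeq2, where 0.204% of all genes were called (0.0561% higher in D1 and 0.148% lower), and limma called 2 higher in D1, where it called 3825 of 39250 genes higher. The difference between the lines in their SC minus SS change was tested directly: it was called for 0 of 10 members (0.028% of all genes called), with 1.04 ± 0.60 for Camk2a and 0.86 ± 0.55 for Camk4 on the log2 scale (edgeR adjusted p = 0.967 for both), so the D1 calls are not shown to differ from the D2 values.

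Across libraries, the level per length of most members fell as the background share rose. Ppp3ca followed it most closely (Pearson's r = -0.949, Spearman's rho = -0.955 over 71 libraries), then Camk2a (r = -0.902, rho = -0.908) and Camk4 (r = -0.813, rho = -0.758). Camk2d went the other way (r = 0.468, rho = 0.578), and Camk2g showed no passing relation (r = 0.219, permutation p = 0.0666; rho = 0.0128, p = 0.916). The permutation p was 1e-05 for both measures, the smallest that 100000 shuffles can give, for Ppp3ca, Camk2a, Camk4, Camk2b, Ppp3cb and Ppp3r1, and its adjusted value over the 10 genes was 1.67e-05 for r. Without the 2 libraries farthest from the median background share, r was -0.947 for Ppp3ca, -0.894 for Camk2a, -0.812 for Camk4 and 0.435 for Camk2d. Within the D1 and the D2 line alone it was -0.945 and -0.957 for Ppp3ca, -0.906 and -0.900 for Camk2a, and 0.512 and 0.453 for Camk2d. The background share and the level per length are both parts of the same library total. A gene well above background therefore tends by construction to fall as the background share rises. A gene close to background tends by the same construction to rise, and Camk2d lay at a median of 1.77 times background. For this reason the permutation p cannot test for a relation beyond that.

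**Figure D4:**
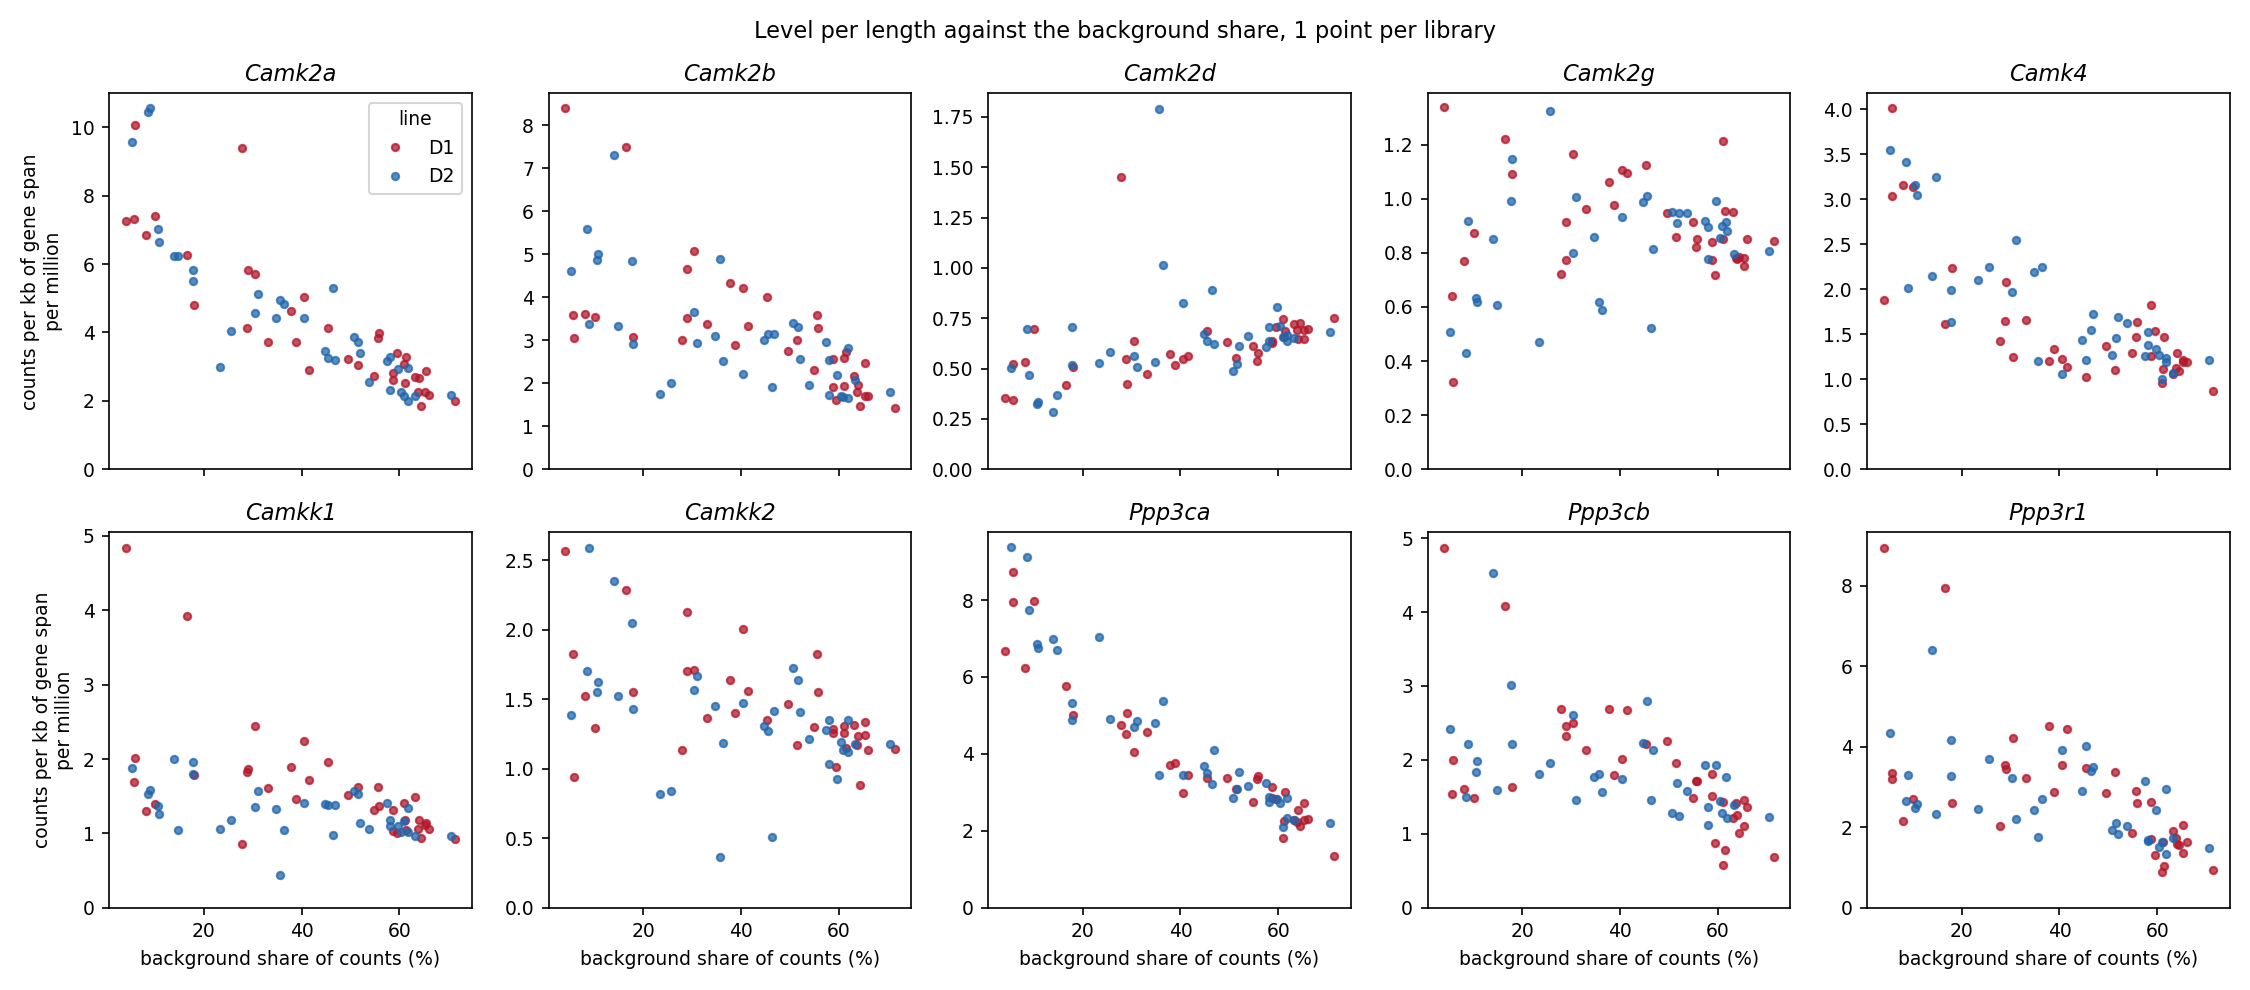
Level of each gene (FPKM over the gene span, linear axis from 0) against the background share of the library's counts (percent), 1 point per library, D1 red and D2 blue. Ppp3ca falls steadily with the background share (r = -0.949), while Camk2d rises (r = 0.468).

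Members also varied together over the 71 libraries. On log2 levels the highest correlations were between Ppp3cb and Ppp3r1 (r = 0.91, and 0.91 within groups), Camk4 and Ppp3ca (0.89 and 0.89) and Camk2a and Ppp3ca (0.88 and 0.87), so the closest pairs joined calcineurin subunits to each other and to kinases. Camk2d ran against the rest, with r = -0.69 to Camkk2 and -0.62 to Camkk1. These values describe the libraries and share their depth and background. By group means over the 8 groups, among 17108 genes, the genes most like Camk2b were Cdc42se2 (r = 0.991), Dync1h1 (0.981) and Peg3 (0.980), and those most like Ppp3ca were Nmt2 (0.995), Pcm1 (0.995) and Son (0.994). Picked as the highest of so many correlations over only 8 values, such r can be high from the ranking alone, and they were not tested.

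The rest of the pathway was followed with 51 genes in 10 lists, all measured. In D1 SC minus SS, 19 of 51 were called higher and 0 lower, where 9.7% of all genes tested were called higher and 1.64% lower. The median log2 change was 0.61 against -0.07 for all genes. The calcium channels and release channels led, with 9 of 11 higher: Ryr3, a calcium release channel of the endoplasmic reticulum, at 1.23 ± 0.27 (edgeR adjusted p = 0.00475), Itpr1, the inositol trisphosphate receptor, at 1.33 ± 0.33, Cacna1a, a voltage-gated calcium channel, at 0.86 ± 0.22, and Ryr1 at 0.75 ± 0.18. Of the factors that the kinases and calcineurin act on, 4 of 8 were higher, Crtc1, a CREB coactivator, at 1.03 ± 0.28, Crebbp at 0.97 ± 0.27, Mef2d at 1.30 ± 0.37 and Mef2c at 0.79 ± 0.25. Nfat5 was the 1 of 5 NFAT genes called, at 1.22 ± 0.30.

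Calcineurin's regulators Rcan2 and Rcan1, which bind and modulate it, were higher at 1.25 ± 0.31 and 0.54 ± 0.17 in D1 SC minus SS, 2 of the 6 in their list. Dapk1 at 1.33 ± 0.30 and Camk1g at 0.94 ± 0.29 were 2 of 6 related kinases, and Gap43, which binds calmodulin, was 1 of 4 buffers at 0.75 ± 0.24. Calmodulin itself was not among the genes called: Calm2 stood at -0.40 and Calm3 at -0.32. The inhibitors of CaMKII (Camk2n1, Camk2n2), the other calcineurin subunits (Ppp3cc at 0.09, Ppp3r2 at -0.25) and the phosphatase 1 inhibitors had 0 called. With the background share as a covariate, with background subtracted or with total count scaling, 0 of the 51 were called, and without the failing libraries 18 were, all higher. Oligodendrocyte markers were called higher in the same comparison, 5 of 5 against 9.7% of all genes, with Mobp at 1.69 ± 0.41. Their summed level ran from 133 through 174 to 243 CPM in SS and from 95.8 through 224 to 799 CPM in SC, highest in D1 SC 1. Of 7 medium spiny neuron markers 5 were called higher as well (median log2 change 1.08), and their summed level ran from 1993 through 2778 to 3410 CPM in SS and from 2104 through 4035 to 5995 CPM in SC. Summed markers of the receptor classes had lower medians in SC. The D1 markers ran from 129 through 502 to 854 CPM in SS and from 159 through 287 to 824 CPM in SC. The D2 markers ran from 89.2 through 332 to 750 CPM in SS and from 115 through 250 to 524 CPM in SC. No marker of the list was at 0 in every library of a group, and the part of such RNA in the members' changes was not tested.

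In D1 CC minus CS, 13 of 51 were called higher and 0 lower, where 8.28% of all genes tested were called higher and 0.0292% lower. The median log2 change was 0.32 against -0.09 for all genes. Of the calmodulin genes, Calm3 was higher at 2.67 ± 0.58 (edgeR adjusted p = 0.0170) and Calm2 at 2.04 ± 0.53 (edgeR adjusted p = 0.0180). Pnck at 2.29 ± 0.52, Camkv at 1.91 ± 0.50 and Camk1 at 0.85 ± 0.27 were 3 of 6 related kinases, and Nrgn, a postsynaptic calmodulin buffer, at 1.83 ± 0.50 and Pcp4l1 at 1.46 ± 0.40 were 2 of 4 buffers.

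The endogenous CaMKII inhibitor Camk2n1 was higher in D1 CC minus CS (edgeR adjusted p = 0.0262), as were Akap5, which anchors calcineurin at the membrane, at 1.72 ± 0.51, Fkbp1a, which binds calcineurin with the drug tacrolimus, at 1.47 ± 0.48, Ppp1r1b at 2.23 ± 0.55 and Grin1, an NMDA receptor subunit, at 1.27 ± 0.40. Of the CREB and MEF2 list and of the NFAT list, 0 were called. Markers of both receptor classes were called higher in the same comparison, where 8.28% of all genes were. They were 3 of 5 D1 markers (Drd1 at 1.81 ± 0.57) and 2 of 5 D2 markers (Penk at 2.09 ± 0.64). The summed D2 markers ran from 130 through 243 to 995 CPM in CS and from 191 through 1044 to 2286 CPM in CC. Their part in the members' changes was not tested. With total count scaling, with the background share as a covariate, with background subtracted or without the failing libraries, 0 of the 51 were called, and with RLE scaling 5 were. In the interaction of challenge with history 0 of the 51 were called with edgeR. DESeq2 called 4 higher and 5 lower there, and RLE scaling 3 higher and 3 lower. The covariate gave 11 higher and total count scaling 4 higher, with 0 lower in both. Of all 37721 genes, DESeq2 called 1325 higher and 1527 lower, RLE scaling 442 and 751, and total count scaling 593 and 99.

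In D1 CC minus SC, 9 of 51 were called lower and 0 higher, where 7.86% of all genes were called lower and 2.62% higher. They were 6 of the 11 calcium channels, led by Ryr3 at -1.24 ± 0.27, Ryr1 at -0.78 ± 0.18, Cacna1a at -0.92 ± 0.22 and Cacna1d at -0.63 ± 0.18, with Nfat5 at -1.15 ± 0.30, Dapk1 at -1.01 ± 0.29 and Rcan2 at -0.99 ± 0.31. Ryr3 ran from 702 through 1040 to 1706 CPM in SC and from 602 through 691 to 840 CPM in CC, so the ranges overlapped and the SC median lay above every CC library. With the background share as a covariate the split turned to 15 higher and 3 lower, with total count scaling it was 1 higher and 4 lower, and without the 5 D1 libraries high in Drd2 it was 0 higher and 1 lower. Of those 5, D1 CC 4, 7, 9 and 10 are in this comparison, all on the CC side. Their part in these changes was not tested. In the other 12 comparisons 0 of the 51 were called with edgeR.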

How the data were processed

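RNA from sorted nuclei was sequenced in 75 libraries (Direct-zol extraction and the SMARTer Stranded Total RNA Pico v3 kit, per the labels' protocols). The authors deposited a table of raw read counts per gene, counted with featureCounts on mm10, and named DESeq2, per the submitters' processing notes; the aligner, its settings and the versions are, like the strand setting, not given in the sources used here. As for FPKM, the authors deposited values whose gene length equals the whole gene span of GENCODE M21 for all 54271 identifiers that could be compared; only these lengths were used, with the counts, for levels per length. All columns matched a sample label.

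Counts were tested with edgeR 4.0.16 (TMM scaling, filterByExpr, quasi-likelihood test, Benjamini-Hochberg adjustment over all genes tested, threshold 0.05) in R 4.3.3, within each line for treatments and over both lines for line differences. Alternatives were DESeq2 1.42.0, limma 3.58.1 with library weights, RLE scaling, no filter, the background share as a covariate or subtracted, a replicate block, leaving out failing libraries (total under the line's median divided by 3, genes with at least 10 counts or correlation with the line more than 4 scaled MAD below the median, or a log2 Drd1 to Drd2 ratio past the mean of both lines' medians) and leaving out each library. Total count scaling and leaving out 5 D1 libraries with over 300 CPM of Drd2 were added after seeing the data. The tests were checked on simulated data in which libraries did not differ in background share, so the check does not cover that difference.

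The members and lists were chosen with earlier results of these data known. All 10 members are named; of a pathway list, up to 4 passing genes per comparison by smallest p, otherwise its first symbols, except where a gene's value is not reported here; marker genes and libraries singled out were chosen after their values were seen.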

Additional observations from a re-analysis of the deposited data

Results flagged for a closer look

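In groups of 8 to 10 libraries, the highest or lowest library was compared with its nearest neighbour by Dixon's criterion; chance flags about 1 in 20 groups, and 14 of the 88 sets of values tested stood out.

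D1 CS 3, whose background share was 10.1% while the other D1 CS libraries had 54.9% or more, stood above the rest of its group for Camk2a (463 CPM against 170 in the next), Camk4 (802 against 331) and Ppp3ca (2134 against 737). D2 SS 9, with a background share of 5.29%, was high for Camk2a (598 CPM against 277) and Camkk1 (43.4 against 32.6) and low for Camk2g (30.1 against 48.2). D1 SC 9, with 5.85% background, was low for Camk2g (19.1 CPM against 37.9).

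D1 SC 6, with the highest background share of its group at 59.5%, was low for Camk2b (156 CPM against 291). D1 CS 7, with 71.5%, was low for Ppp3cb (32.3 CPM against 52.3), and its log2 ratio of CaMKII to calcineurin genes was high at 0.75 against 0.19. D1 SS 8 was low for Ppp3ca (489 CPM against 806) and D2 CS 1 was high for Ppp3cb (214 CPM against 105). The log2 ratio of CaMKII to calcineurin genes was also apart in D2 CS 4 (0.80 against 0.21) and in D2 CC 9 (-0.98 against -0.13).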

How the results depend on the processing

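The number of called members in D1 SC minus SS (4) became 0 with the background share as a covariate, 1 with background subtracted, 2 with total count scaling and 2 without the failing libraries. In D1 CC minus CS (4) it became 0 with RLE scaling, the covariate, subtraction, total count scaling or without the failing libraries. In D1 CC minus SC (1) it became 3 with DESeq2 or RLE scaling, 5 with the covariate, 8 with limma, 2 with total count scaling and 0 without the D1 libraries high in Drd2. In the D1 interaction of challenge with history (0) it became 1 with DESeq2 or RLE scaling and 2 with the covariate. Limma called 9 members in D1 CS minus SS, 2 between the lines over 4 treatments, 4 in D2 CC minus SS, 3 in D2 CS minus SS and 2 in D2 SC minus SS, where edgeR called 0. The log2 ratio of CaMKII to calcineurin genes in D2 SC minus SS passed without the failing libraries (0.35, exact permutation adjusted p = 0.0131). The cause of these differences was not tested.

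Leaving out 1 library gave 0 to 5 called members in D1 SC minus SS, 0 to 8 in D1 CC minus CS, 0 to 3 in D1 CC minus SC and 0 to 1 in the D1 interaction; in the other comparisons refitted in this way it gave 0 throughout. The 9 called changes of members kept their direction under the alternatives run for them. Members not called did not: in D1 SC minus SS, where all 10 changes lay above 0, 5 lay below 0 with the covariate, 2 with background subtracted, 2 with total count scaling and 1 with DESeq2, and in D1 CC minus SS 9 lay below 0 with limma. Genes called in all changed too: in D1 SC minus SS 4277 with edgeR became 267 with total count scaling, 290 with background subtracted, 2 with the covariate and 1880 with the replicate block. In D1 CC minus CS 3134 became 674 with RLE scaling and 0 with total count scaling, and in D1 CC minus SC 3955 became 7045 with the covariate, 7575 with DESeq2 and 17029 with limma. For the D1 interaction of challenge with history, 0 became 2852 with DESeq2, 1193 with RLE scaling and 692 with total count scaling.

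The replicate numbers do not pair the libraries: of 107 pairs with the same number 41 had correlated deviations over 0.1 (median r = -0.01), and 8 of 75 libraries correlated best with their own number. With the number as a replicate block, 3 members were called in D1 SC minus SS, 3 in D1 CC minus CS and 2 in D1 CC minus SC.

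Among the 71 libraries with at least 1000000 counts, the lowest count was 14 for Camkk1 and 24 for Camkk2, so their values there are imprecise. These minima leave out the 4 shallower libraries, with totals from 19825 to 651445 counts, which the tests also used.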
